A study of Mus musculus with 21 samples.

Results

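Erythroid commitment was followed in mouse bone marrow from the compartment of stem cells and multipotent progenitors, KLS, to the colony-forming erythroid progenitor, CFUe. The comparison rests on 6 of the 21 arrays of the series, the 3 arrays titled CFUe and the 3 titled KLS, and the arrays were chosen by title alone. The 3 PreMegE arrays, from a progenitor fraction with megakaryocyte and erythroid potential, lie between them and divide each net change into a first step, from KLS to PreMegE, and a second step, from PreMegE to CFUe. All 9 samples were primary haematopoietic cells of C57BL/6 mice, and the labels name no age, sex, altered allele or treatment for any of them. KLS cells were sorted as lin- ckit+ sca1+. PreMegE cells carry those terms together with CD150+, and were negative for CD105 and for the receptors written FGCrI/II. The CFUe label holds lin- ckit+ sca1+ with CD150-, CD105- and FCGrI/II-, and the PreGM label of the same series lists the same antigens. Lin stands here for Ter119, Mac1, Gr1, CD41 and the lymphoid antigens B220, CD3, CD4 and CD8. No label says that the arrays of a fraction came from separate animals, so the p values below measure the spread between these samples, which may be technical.

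A stem cell that enters the erythroid line loses the factors and receptors that keep lymphoid and myeloid options available, and takes up a programme led by the factor GATA1 and its partner KLF1 under the hormone erythropoietin. The progenitor then builds the enzymes of haem synthesis, the transferrin receptor that brings in iron, and the skeleton that lets the red cell deform. The CFUe is also a rapidly dividing cell, and the megakaryocyte line, which makes platelets, separates from the erythroid line shortly before this stage. In a bulk sample, fewer cells of a type and less RNA of a gene per cell cannot be told apart.

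A level below is the log2 intensity of a probe minus the 75th percentile of its array, so that 0 is the 75th percentile and 1 unit is a doubling. A gene was represented by its brightest probe over the series, and it is said to rise or fall only where its change was 2-fold or more and limma gave it a Benjamini-Hochberg adjusted p under 0.05. On the 9 arrays, 56.3% to 77.4% of the spots were well above background and none was saturated. The arrays of a fraction were not alike in every gene group, and departures in groups described below are given here and beside some of the results. CFUe array 3 was the highest of the 3 CFUe arrays for 15 of 15 neutrophil granule genes, by a median of 2.52 over the mean of the others, for 28 of 32 myeloid genes by 1.63, for 17 of 20 lymphoid genes by 1.26 and for 26 of 32 factors of stem cells by 0.60, and the lowest for 24 of 32 immediate early genes by -0.96. The same array differed by a median of -0.01 in genes of the red cell membrane, and by 0.02 over all probes tested. KLS array 3 was the highest KLS array for 71 of 75 respiratory chain genes, by 0.46, and the lowest for 15 of 16 macrophage genes, by -1.06, for which KLS array 1 was the highest. PreMegE array 2 was the highest of its fraction for 67 of 75 respiratory genes, by 0.27. CFUe array 1 was the lowest CFUe array for 70 of 74 respiratory genes, by -0.26, and for 79 of 79 genes of the cytosolic ribosome, by -0.20. Xist, the transcript of the inactive X chromosome, was read at 4.92 and 5.08 on CFUe arrays 1 and 2, at -4.47 on CFUe array 3, and between -7.47 and -5.37 on the KLS and PreMegE arrays. Among the 9 arrays a high Xist level was thus found in CFUe only, so a difference that goes with it is partly confounded with the fraction. KLS array 1 and CFUe array 3 lay on 1 slide and PreMegE array 1 and CFUe array 2 on another, so some values below are also given with the slide as a block or within a slide. No slide held both a KLS and a PreMegE array. A first step with the slide as a block is therefore estimated only through arrays of other fractions, CFUe array 3 among them. The part of these departures in the results was not tested.

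The antigens of the sort were read first. Ly6a, which encodes Sca1, was read at 2.64, 2.38 and 2.70 on the KLS arrays, at -2.92, -3.17 and -3.35 on the PreMegE arrays and at -6.12, -6.84 and -4.49 on the CFUe arrays, of which 1 was well above background. The transcript of Sca1, an antigen for which the CFUe label is positive beside ckit, was thus lowest in CFUe and highest in KLS, with no overlap. Slamf1, which encodes CD150, was high in PreMegE only, at 0.21, 0.41 and 0.35, against -3.28, -2.86 and -2.86 in KLS and no CFUe array well above background. Eng, which encodes CD105, lay between 1.90 and 2.56 on all 9 arrays, and its difference of 0.40 ± 0.11 (SE, n = 3 per fraction, as for every SE below) between CFUe and KLS was under 2-fold. Each SE is that of the limma fit, which pools the spread of a probe over all 7 fractions. It can therefore understate the spread in the fractions compared. For Cd34 the SD of the CFUe arrays was 2.41 and the SE of its net change 0.72.

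Of 14318 genes tested, 2789 rose and 2753 fell between KLS and CFUe, which is 38.7% of the genes. The first step held 518 genes that rose and 1421 that fell (13.5%), and the second step 1672 that rose and 2036 that fell (25.9%). The steps share the PreMegE arrays, so their calls are not independent. Whether the signed change of a gene differed between the steps was therefore tested as the second step minus the first, in the same fit. This step difference was called for 22.5% of the genes, higher for 1569 and lower for 1647. It can also be called where a gene rises at one step and falls by as much at the other. A call alone thus does not mean a larger change at one step. The median gene was 0.31 higher in CFUe than in KLS, 0.13 at the first step and 0.19 at the second. When the arrays were scaled to the synthetic spike-in RNAs instead, the median was -0.67 and the calls became 446 higher and 5243 lower, so that the share of higher calls moved from 50.3% to 7.84%. With the spike-in scaling it moved from 26.7% to 10.2% at the first step and from 45.1% to 13.1% at the second. Among the 11008 genes well above background on all 9 arrays, 64.7% of the net calls were higher, and with a normexp background correction 39.5% were. A change in a gene group is therefore read below against the median gene of the same comparison. Its counts of rises and falls are to be read against the shares of all genes. Between KLS and CFUe these were 19.5% and 19.2%, at the first step 3.62% and 9.92%, and at the second 11.7% and 14.2%.

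**Figure D1:**
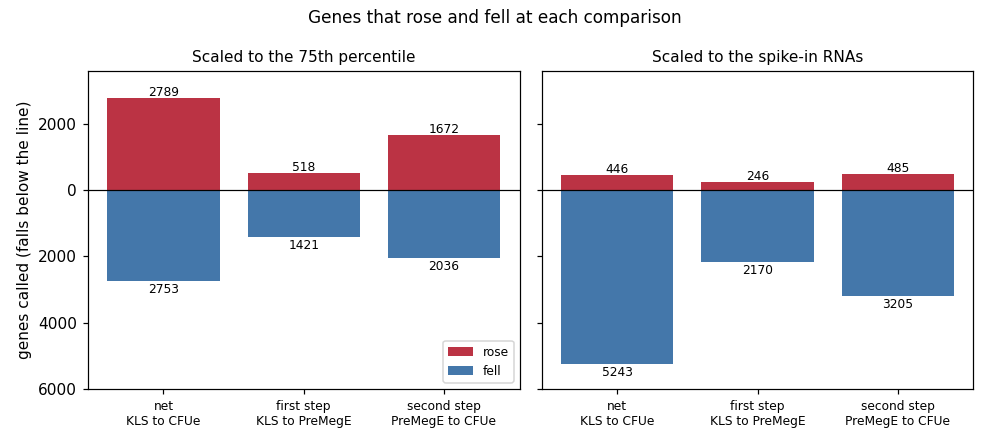
Number of genes that rose (bars upward) and fell (bars downward) between KLS and CFUe and at each of the 2 steps, with the arrays scaled to their 75th percentile (left panel) or to the spike-in RNAs (right panel). In the left panel the net bars are of nearly the same height, 2789 and 2753, and in the right panel most calls are falls, 5243 against 446 rises.

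Gata1 and Klf1 rose mainly at the first step. Gata1, the principal erythroid factor, was read at -2.31, -2.19 and -1.43 in KLS, at 2.45, 2.48 and 2.51 in PreMegE and at 3.02, 3.19 and 3.18 in CFUe. Its rise of 5.11 ± 0.24 (adjusted p = 1.8e-11) was made up of 4.46 at the first step and 0.65 at the second, which did not reach 2-fold, and the step difference was -3.81. Klf1, the Kruppel-like factor of red cell genes, was read at -3.21, -2.76 and -1.29 in KLS, at 2.06, 2.33 and 2.23 in PreMegE and at 3.74, 3.96 and 4.03 in CFUe. It rose by 6.33 ± 0.41, or 80.4-fold (adjusted p = 9.3e-10), with 4.63 at the first step and 1.70 at the second, and the step difference of -2.93 ± 0.72 was called (adjusted p = 0.0053). Epor, the receptor of erythropoietin, was at -0.22, -0.48 and 0.58 in KLS, at 3.52, 3.80 and 3.55 in PreMegE and at 5.02, 5.23 and 5.27 in CFUe, and it rose at both steps, by 3.66 and then by 1.55. For each of these 3 genes no 2 fractions overlapped.

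Gata2, the GATA factor of stem cells and early progenitors, was highest in PreMegE. It was read at 2.55, 2.71 and 2.93 in KLS, at 5.23, 5.41 and 4.95 in PreMegE and at 2.07, 2.24 and 2.39 in CFUe, so that it rose by 2.46 and then fell by 2.96, with a step difference of -5.43 and a net change of -0.50 that was under 2-fold. The net change was -0.97 with quantile normalization and -1.48 with the spike-in scaling, where it passed the test (limma, adjusted p = 0.00017), and the mean over its 2 tested probes was -0.76. Spi1, which encodes PU.1, the factor of myeloid and B cells, was lowest in CFUe. Its levels were -0.93, -0.79 and -0.56 in KLS, -2.37, -2.09 and -2.12 in PreMegE and -6.82, -6.36 and -4.95 in CFUe, where array 3 alone was well above background, and its fall of 5.28 ± 0.36 came to a larger part at the second step (3.85 against 1.43, step difference -2.42 ± 0.62, adjusted p = 0.0070). Its first step was -0.65 when slides were blocked, and lost its call (limma, adjusted p = 0.40). Of 20 erythroid transcription factors tested, 10 rose and 1 fell between KLS and CFUe, where 19.5% of all genes rose and 19.2% fell, with a median of 0.98. With quantile normalization 7 rose and 4 fell, where 2424 of all 14318 genes rose and 2778 fell. With the spike-in scaling 5 rose and 6 fell, with a median of 0.00, where 446 of all genes rose and 5243 fell. The list thus lost its excess of rises over falls with the spike-in scaling, while its share of rises stayed above that of all genes. At the first step 6 rose and none fell, against 3.62% and 9.92% of all genes, and among them were Gfi1b, a repressor needed for both red cells and platelets, at 2.39, and Zfpm1, the partner of GATA1, at 2.11. With the spike-in scaling 4 rose and 1 fell at this step. At the second step 5 rose and 3 fell, where 11.7% and 14.2% of all genes did, and 13 of the 20 step differences were called, 2 higher and 11 lower, against 11% and 11.5% of all genes. Nfe2, a factor of globin and platelet genes, was the net fall, at -1.18 ± 0.22, with a fall of 1.65 at the second step after 0.47, and with the slide as a block its net change was under 2-fold (-0.91).

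**Figure D2:**
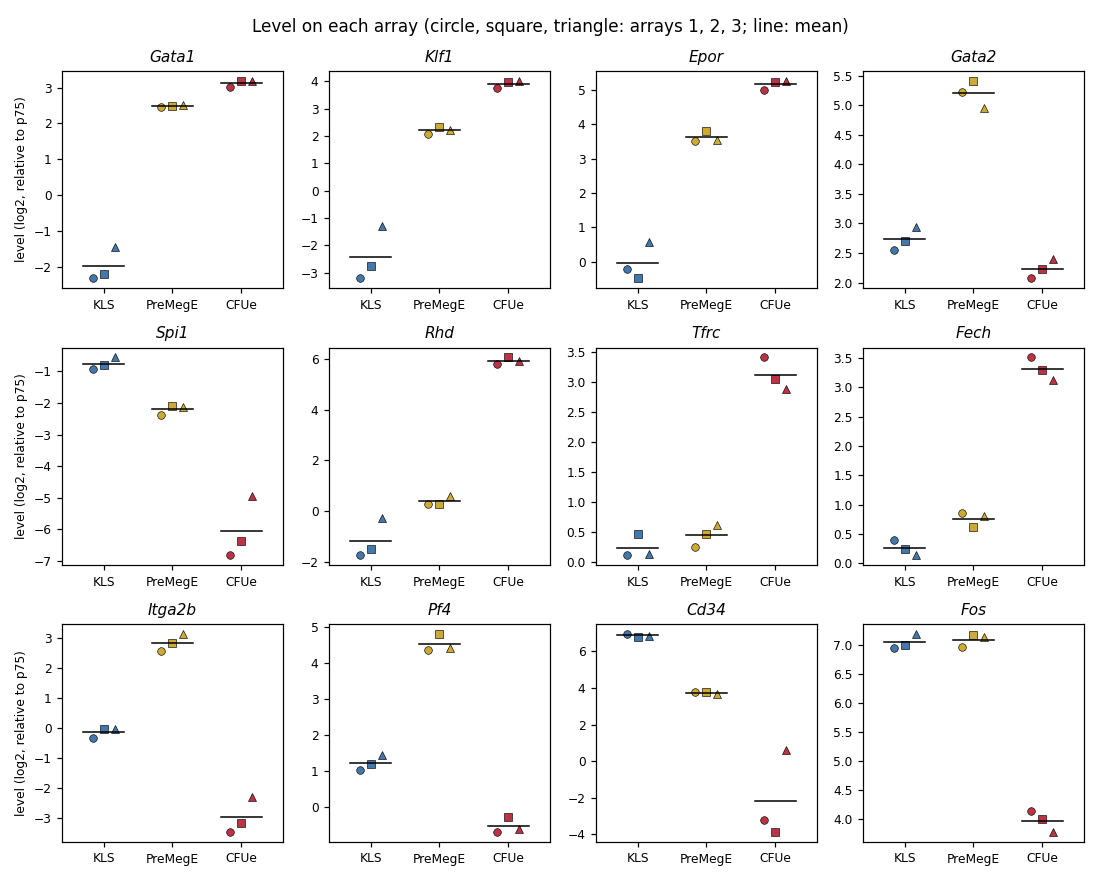
Level of 12 genes on each of the 9 arrays (points) with the mean of each fraction (horizontal lines), on the log2 scale relative to the 75th percentile of the array. Gata1, Klf1 and Epor lie higher in each fraction than in the one before it, Gata2, Itga2b and Pf4 are highest in PreMegE, and Fos lies within 0.24 on the 6 KLS and PreMegE arrays and falls only in CFUe.

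The 12 genes with the largest rise between KLS and CFUe, among those well above background on all 6 arrays, were led by Rhd, the erythrocyte Rh blood group antigen. Rhd was read at -1.75, -1.52 and -0.28 in KLS, at 0.26, 0.28 and 0.61 in PreMegE and at 5.81, 6.06 and 5.91 in CFUe. It rose 138-fold (7.11 ± 0.30, adjusted p = 4.2e-12), by 1.57 at the first step and by 5.55 at the second, with a step difference of 3.98 ± 0.52 (adjusted p = 2.1e-05). Ermap, an erythroblast membrane protein, and Kel, the Kell blood group protein, rose by 6.66 and 6.39, and Kel did so mostly at the first step (4.83 against 1.56, step difference -3.26). The proteins of the red cell skeleton Add2, beta adducin, and Ank1, ankyrin, rose by 6.50 and 6.37 without a called step difference. The first-step rise of Add2, 2.39, was 1.67 with the slide as a block and lost its call (limma, adjusted p = 0.19).

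The promoters of Klf1, Epor, Rhd, Ermap and Kel are shown because these genes rose between KLS and CFUe and because their windows hold a word with the core GATA, which GATA factors bind. Each line holds the 250 bases before the start of the gene in the direction of its transcription, from RefSeq sequence of the GRCm38.p6 build, and the capitals mark the words AGATAA and TGATAA, searched on both strands.
Klf1, chr8:84901732-84901981, plus strand: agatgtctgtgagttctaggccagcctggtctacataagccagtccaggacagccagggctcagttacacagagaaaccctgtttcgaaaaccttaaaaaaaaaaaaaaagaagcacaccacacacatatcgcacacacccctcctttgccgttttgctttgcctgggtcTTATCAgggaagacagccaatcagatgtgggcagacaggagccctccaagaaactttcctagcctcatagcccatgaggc
Epor, chr9:21963577-21963826, minus strand: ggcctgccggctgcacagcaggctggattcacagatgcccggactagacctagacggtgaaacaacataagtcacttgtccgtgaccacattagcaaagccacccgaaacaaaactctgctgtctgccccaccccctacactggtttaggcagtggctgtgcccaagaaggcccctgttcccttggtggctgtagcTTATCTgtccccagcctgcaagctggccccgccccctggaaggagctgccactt
Rhd, chr4:134864286-134864535, plus strand: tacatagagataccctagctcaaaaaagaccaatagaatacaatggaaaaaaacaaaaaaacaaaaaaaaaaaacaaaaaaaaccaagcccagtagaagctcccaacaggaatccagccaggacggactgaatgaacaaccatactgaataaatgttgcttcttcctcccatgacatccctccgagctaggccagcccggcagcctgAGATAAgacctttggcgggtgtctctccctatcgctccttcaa
Ermap, chr4:119189996-119190245, minus strand: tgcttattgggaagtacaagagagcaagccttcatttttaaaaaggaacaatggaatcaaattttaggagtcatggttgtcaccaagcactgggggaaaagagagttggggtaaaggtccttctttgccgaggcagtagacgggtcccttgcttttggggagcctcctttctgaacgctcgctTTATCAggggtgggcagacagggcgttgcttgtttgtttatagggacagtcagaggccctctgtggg
Kel, chr6:41704326-41704575, minus strand: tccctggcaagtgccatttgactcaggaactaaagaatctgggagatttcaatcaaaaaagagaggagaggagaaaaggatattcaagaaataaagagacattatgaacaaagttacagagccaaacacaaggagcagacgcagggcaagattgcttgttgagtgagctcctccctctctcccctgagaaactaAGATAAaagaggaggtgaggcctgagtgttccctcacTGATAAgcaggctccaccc
Counting from -1 at the base before the start, AGATAA lay at -43 to -38 in Rhd and at -56 to -51 in Kel, which also held TGATAA at -19 to -14. In Klf1, Epor and Ermap the word was read on the opposite strand, as TGATAA at -80 to -75, as AGATAA at -54 to -49 and as TGATAA at -67 to -62. Over 32851 promoter windows of the same length, 16.6% held at least 1 of the words, and counted by gene symbol 18.8% did. Of the 12 largest rises, 9 had an entry in the promoter table and 5 held a word, namely Klf1, Rhd, Ermap, Kel and, at 2 of its 5 listed starts, Sphk1. The other 4, Slc38a5, Aldh1a7, Npsr1 and Add2, held none and are not printed. Of the 12 largest falls, 7 had an entry and 1 held a word, and of 50 genes on the haem, membrane and erythroid factor lists with an entry, 18 did (36%). A match is a description of the letters in the window and not of binding.

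Most genes of haem synthesis rose. Of its 15 genes tested, 12 rose and none fell, with a median change of 2.58 (2.48 with the slide as a block, 2.60 within the slide that held both fractions and 1.60 with the spike-in scaling). Without KLS array 3 13 rose. At the first step 6 rose, with a median of 0.54, but 4 did with the slide as a block, 3 in the series table of values and 2 with the spike-in scaling, where the median was 0.08. At the second step 9 rose, with a median of 1.50 (7 rose and 1 fell with the spike-in scaling). Fech, which inserts iron into the ring at the last reaction, was read at 0.40, 0.24 and 0.14 in KLS, at 0.86, 0.61 and 0.81 in PreMegE and at 3.51, 3.29 and 3.13 in CFUe. It rose by 3.05 ± 0.13, nearly all of it at the second step (2.55). Alad and Urod rose at both steps, by 1.08 and 1.50 and by 1.16 and 1.61, and with the spike-in scaling their first steps of 0.61 and 0.69 did not pass. Cpox, the coproporphyrinogen oxidase, rose from 0.73, 0.72 and 1.01 in KLS to 5.01, 5.18 and 4.94 in CFUe, but 1 PreMegE array read -4.06 against 1.70 and 1.66 on the others, so its changes by step rest on that array, and when slides were blocked its net adjusted p was 0.061. Alas2, the erythroid form of the first enzyme, did not pass the test, at -2.49 ± 0.14 (SD, n = 3) in KLS and -2.91 ± 0.08 in CFUe, but with the spike-in scaling it fell by 1.39. The 4 globin transcripts tested did not pass, with differences from -0.88 for Hbb-bt to 0.87 for Hbb-bh1. For Hbb-bt the fall passed with quantile normalization (-1.53), with the spike-in scaling (-1.86) and without CFUe array 3 (-1.06). The near-identical copies of these genes may share signal on 1 probe.

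Iron genes rose more often at the second step, as did genes in general (3.62% of all genes rose at the first step and 11.7% at the second). Of 19 genes of iron uptake and handling, 10 rose and 1 fell between KLS and CFUe, with 3 rises at the first step and 8 at the second, and with the spike-in scaling 4 rose and 3 fell. Of 6 called step differences 5 were higher. Tfrc, the transferrin receptor, was read at 0.12, 0.47 and 0.14 in KLS, at 0.26, 0.47 and 0.62 in PreMegE and at 3.41, 3.05 and 2.88 in CFUe. The KLS and PreMegE arrays overlapped, and the rise of 2.87 ± 0.18 fell on the second step, with a step difference of 2.46 ± 0.31 (adjusted p = 1.5e-05). Slc40a1, ferroportin, the exporter of iron, had a net difference of 0.14 ± 0.35, made of a fall of 2.75 and a rise of 2.90. It stood at 3.07, 2.41 and 1.45 in KLS, at -0.43, -0.59 and -0.30 in PreMegE and at 2.40, 2.29 and 2.67 in CFUe. Its KLS levels ran in the same order as those of the macrophage genes on these arrays, and the part of macrophage RNA in its fall was not tested. Ncoa4, the receptor that takes ferritin to autophagy, was the net fall, at -1.64.

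Genes of the red cell membrane rose at both steps. Of 28 genes of the membrane and its skeleton, 19 rose and 3 fell, with a median of 2.98, and at the steps 14 rose and 3 fell and 15 rose and 4 fell, with medians of 1.41 and 1.40. Over all genes 19.5% rose and 19.2% fell in net, 3.62% and 9.92% at the first step and 11.7% and 14.2% at the second. Epb42, protein 4.2, was not well above background on any KLS or PreMegE array, and it was at least 10.4-fold higher in CFUe than in KLS and at least 11.1-fold higher than in PreMegE. Tmod1, tropomodulin, took the opposite course. It was well above background in PreMegE alone, at -3.57, -3.44 and -3.18, at least 4.11-fold above KLS and at least 2.77-fold above CFUe. The largest fall of the list was Slc2a1, the glucose transporter GLUT1, by 5.06. Of 10 carbonic anhydrases and red cell enzymes, 6 rose and none fell, and 4 rose and 1 fell with the spike-in scaling. Car1, carbonic anhydrase 1, rose by 4.53 at the first step and by 1.77 at the second (step difference -2.76 ± 0.57), whereas Car2 rose by 2.09 at the second step after a change of 0.38 that was under 2-fold (step difference 1.71 ± 0.21). Pklr, the red cell pyruvate kinase, rose from -4.67, -4.12 and -4.30 in KLS to 0.99, 0.85 and 0.63 in CFUe.

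The factors of stem and multipotent cells fell. Of 32 tested, 28 fell and none rose, with a median of -3.13 (-3.03 with the slide as a block, -2.94 within the shared slide and -3.32 without CFUe array 3). The falls were 27 without CFUe array 3, 26 without KLS array 3 and 24 with the slide as a block. The first step held 11 falls and 2 rises and the second 21 falls and no rise, with medians of -0.75 and -2.08, and 14 of the 17 called step differences were lower. Over all genes 19.2% fell between KLS and CFUe, 9.92% at the first step and 14.2% at the second. On the CFUe arrays 65.6% to 90.6% of the list was well above background, so signals near background limit the sizes of its falls. Hlf, a factor of long-lived stem cells, fell at both steps, from 4.08, 4.13 and 4.22 in KLS to 0.05, -0.03 and -0.23 in PreMegE, and then to -3.84, -3.11 and -2.32 in CFUe. Its net fall was 7.23 ± 0.26, or 150-fold, with -4.21 at the first step and -3.02 at the second, and the step difference of 1.19 was not called (adjusted p = 0.060). Meis1, the partner of HOX proteins, was read at 1.71, 1.69 and 2.17 in KLS and at 1.55, 1.65 and 1.52 in PreMegE, a difference of -0.28 that did not pass, and fell by 6.67 at the second step, to a level well above background on 1 CFUe array. Mycn, a MYC family factor, was at least 75-fold lower in CFUe than in KLS and at least 97.4-fold lower than in PreMegE, with no CFUe array well above background and a first step of 0.38 that did not pass. Erg and Fli1, ETS factors of stem cells and megakaryocytes, fell by 5.55 and 4.50 at the second step, where their first steps of -0.76 and 0.27 did not pass.

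The surface of stem and progenitor cells was lost at different steps for different genes. Of 36 genes tested, 28 fell and 4 rose (30 and 1 with the spike-in scaling), with a median of -3.54 (-3.97 without CFUe array 3). At the first step 13 fell, or 8 with the slide as a block, and at the second 26 fell. Over all genes 19.2% fell between KLS and CFUe, 9.92% at the first step and 14.2% at the second. On the CFUe arrays 55.6% to 72.2% of the list was well above background, which limits the sizes of its falls. Procr, the endothelial protein C receptor of stem cells, was read at 2.82, 2.70 and 2.84 in KLS and at -4.08, -4.18 and -4.56 in PreMegE, and no CFUe array was well above background. Its first fall was of 7.06, and it was at least 201-fold lower in CFUe than in KLS. Cd34, a sialomucin of progenitors, fell from 6.93, 6.80 and 6.86 through 3.80, 3.75 and 3.67 to -3.22, -3.87 and 0.58, by 9.03 ± 0.72 in all and by 10.41 without CFUe array 3, whose level lay far above those of the other CFUe arrays. Its first step was -3.12, and with the slide as a block it was -1.40 and lost its call (limma, adjusted p = 0.45). That block joins KLS and PreMegE only through other fractions, CFUe array 3 among them. Tek, the angiopoietin receptor, rose by 1.81 at the first step and was at least 19.6-fold lower in CFUe than in PreMegE.

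Of 33 cytokine receptors, 23 fell and 2 rose between KLS and CFUe, where 19.2% of all genes fell and 19.5% rose. Epor was the largest rise. Flt3, the receptor of lymphoid and myeloid progenitors, fell at the first step alone, by 4.86, and its second step of 0.30 did not pass, with a step difference of 5.16 ± 0.45. Csf3r, the receptor of G-CSF, fell by 4.70 at the first step and was at least 59.6-fold lower in CFUe than in KLS. Csf2rb, the common beta chain for IL-3 and GM-CSF, fell by 2.29 and then fell by 3.47. Of 27 genes of JAK-STAT signalling and its feedback, 11 fell and none rose, beside the same shares of all genes. Socs3, the inhibitor of cytokine signalling, fell 273-fold, from 5.08, 3.97 and 3.62 in KLS through 2.42, 1.60 and 1.28 in PreMegE to -4.16, -3.97 and -3.47 in CFUe. Pim1, a kinase that STAT5 induces, fell by 2.78 at the second step only, with a first step of 0.23 that did not pass (step difference -3.01 ± 0.33). Of 28 genes of TGF beta and BMP signalling, 14 fell and 2 rose, the falls mostly at the second step (13, against 5 at the first). Over all genes 14.2% fell at the second step and 9.92% at the first. Tgfbr2, the type II receptor of TGF beta, fell by 2.26 at the second step, after -0.25 at the first step.

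Lymphoid and myeloid genes fell at both steps. Of 20 genes of lymphoid priming, 17 fell and none rose, with a median of -4.81 (-5.11 without CFUe array 3), and 15 fell at the first step against 11 at the second. Over all genes 19.2% fell between KLS and CFUe, 9.92% at the first step and 14.2% at the second. On CFUe arrays 1, 2 and 3, 50%, 60% and 85% of the list was well above background. Signals near background thus limit the sizes of these falls, more so without array 3. Of 13 called step differences 9 were higher, that is, with the larger fall at the first step. Dntt, the terminal transferase of lymphoid progenitors, was read at 5.74, 5.73 and 5.51 in KLS, at -1.41, -1.81 and -1.78 in PreMegE and at -1.73, -1.55 and 0.35 in CFUe. Its whole fall lay in the first step, at -7.33 ± 0.39 against a second step of 0.69 that did not pass, with a step difference of 8.02 ± 0.68. Of 32 myeloid factors and receptors, 29 fell and none rose, with a median of -4.43 (-4.10 with the slide as a block, -3.62 within the shared slide and -4.93 without CFUe array 3). The first step held 21 falls, or 11 with the slide as a block, and the second 23. On CFUe arrays 1, 2 and 3, 46.9%, 65.6% and 84.4% of these genes were well above background, with the same limit. Of 15 neutrophil granule genes, with a median of -1.42, 7 fell, where 19.2% of all genes did. Without CFUe array 3 10 fell, without KLS array 3 or with the slide as a block 4 did, and within the slide shared by KLS array 1 and CFUe array 3 the median was 0.30. Mpo, myeloperoxidase, was read at 7.12, 7.0 and 7.54 in KLS and at 1.09, 0.73 and 4.27 in CFUe. One PreMegE array had no usable Mpo spot, and the other 2 read 5.89 and 5.80. S100a8 ended at 2.28 on CFUe array 3, beside -0.22 and -0.25, and with slides as a block the fall lost its call (limma, adjusted p = 0.24).

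Genes of macrophages, a cell type outside the sorted fractions, fell mainly at the first step. Of 16 tested, 15 fell there, with a median of -5.06, and all 12 called step differences were higher. On the PreMegE arrays 68.75% to 81.25% of these genes were well above background, and on the CFUe arrays 18.75% to 56.25%. The log2 of their summed signal was 4.94 to 6.39 on the KLS arrays, 0.29 to 1.06 on the PreMegE arrays and -0.45 to 0.26 on the CFUe arrays. Adgre1, which encodes F4/80, was read at 1.76, 1.0 and 0.31 in KLS, and Vcam1, an adhesion molecule of marrow macrophages and stroma, at 4.17, 3.56 and 2.64. No CFUe array was well above background for either, and they were at least 59.5-fold and at least 318-fold lower in CFUe than in KLS. Cd74, the invariant chain of MHC class II, fell by 4.40 at the first step, in a list of which 9 of 10 genes fell. The part of macrophage RNA in the falls of MHC class II and myeloid genes was not tested. Of 11 B cell and 14 T and NK cell genes, 5 and 5 fell and none rose, where 19.2% of all genes fell and 19.5% rose. The median level of the B cell genes was -3.63 in KLS and -3.69 in CFUe. On the CFUe arrays 54.5% to 81.8% of the B cell genes and 35.7% to 71.4% of the T and NK cell genes were well above background.

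**Figure D3:**
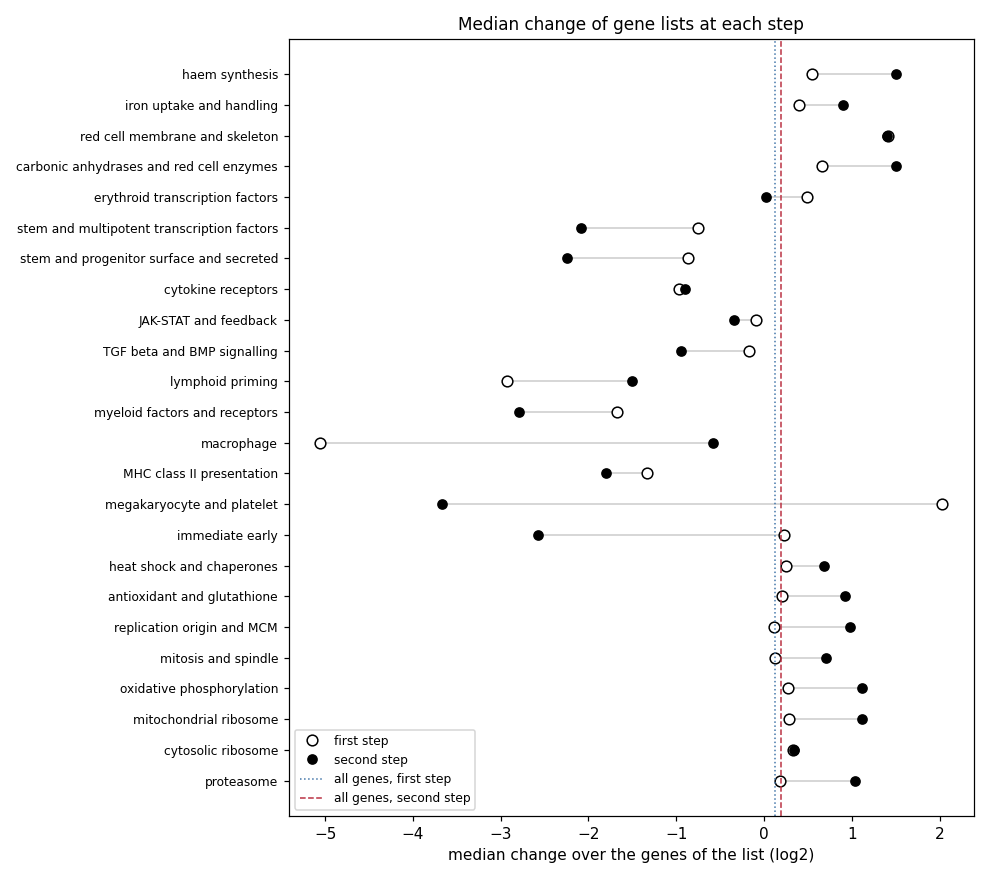
Median log2 change over the tested genes of 24 gene lists at the first step (KLS to PreMegE, open circles) and the second step (PreMegE to CFUe, filled circles), with the median of all 14318 genes at each step as vertical lines. Lymphoid and macrophage genes have their larger fall at the first step, immediate early genes at the second, and megakaryocyte genes lie at 2.03 at the first step and at -3.66 at the second.

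The megakaryocyte genes rose and were lost again. Of 23 tested, 15 rose and 3 fell at the first step, with a median of 2.03, and 21 fell and none rose at the second, with a median of -3.66. Over all genes 3.62% rose and 9.92% fell at the first step, and 11.7% rose and 14.2% fell at the second. On the CFUe arrays 60.9% to 65.2% of the list was well above background. All 19 called step differences were lower. Itga2b, the alpha IIb integrin or CD41, which belongs to the lineage antigens of the sort, was read at -0.32, -0.03 and -0.04 in KLS, at 2.57, 2.83 and 3.13 in PreMegE and at -3.46, -3.17 and -2.29 in CFUe. Pf4, platelet factor 4, followed it with 1.02, 1.17 and 1.42, then 4.36, 4.80 and 4.42, then -0.71, -0.30 and -0.62. Both were highest in PreMegE and lowest in CFUe without overlap, at step differences of -8.79 and -8.39. Cavin2 fell by 8.30 after a rise of 4.40, and was well above background on 1 CFUe array. Gp5, glycoprotein V of platelets, kept part of its rise, at 3.95 and then -1.38, for a net 2.57, and Vwf, von Willebrand factor, rose by 2.03 and fell by 1.25. With the slide as a block the second steps of both lost their calls, at -1.77 (limma, adjusted p = 0.073) and -0.97, which was under 2-fold.

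**Figure D4:**
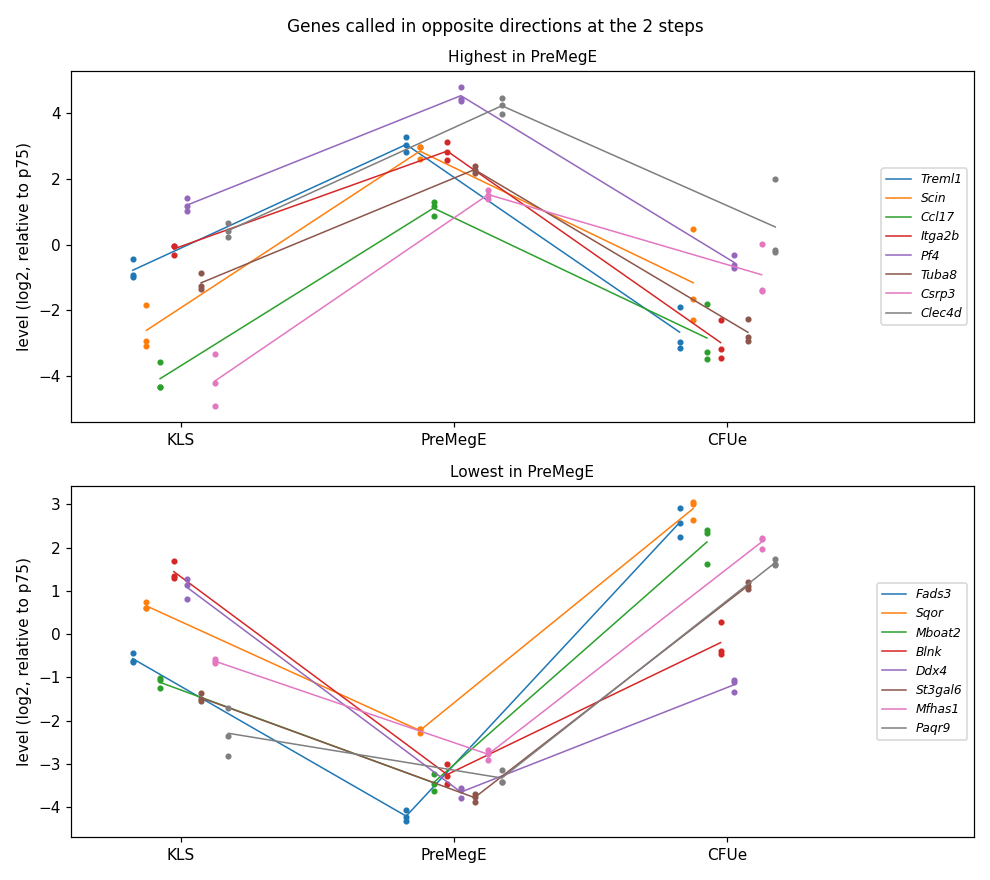
Level of the 8 genes with the most negative and the 8 with the most positive step difference, among genes called in opposite directions at the 2 steps and well above background on all 9 arrays, as the mean of each fraction (lines) with each array as a point. The upper panel holds genes highest in PreMegE, led by Treml1, and the lower panel genes lowest there, led by Fads3.

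The 8 genes with the strongest maximum in PreMegE were not all of this list. Treml1, a receptor of platelet granules, rose by 3.82 and fell by 5.70 (step difference -9.52 ± 0.43, adjusted p = 3.7e-10). Tuba8, an alpha tubulin, rose by 3.44 and fell by 4.94. Scin, the actin-severing protein scinderin, rose 43.5-fold, from -3.08, -2.91 and -1.82 to 2.59, 2.97 and 2.96, and fell to -1.64, -2.30 and 0.47. Ccl17, a chemokine, rose by 5.18 and fell by 3.95, Csrp3, a muscle LIM protein, rose by 5.67 and fell by 2.43, and Clec4d, a C-type lectin receptor, rose by 3.79 and fell by 3.68. Without CFUe array 3, which was the highest CFUe array for each of these 4 genes, the second falls were 4.81, 4.47, 2.91 and 4.41.

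The 8 genes with the strongest minimum in PreMegE were led by Fads3, a gene of the fatty acid desaturase family. It was read at -0.43, -0.63 and -0.65 in KLS, at -4.07, -4.33 and -4.23 in PreMegE and at 2.57, 2.92 and 2.25 in CFUe, so that it fell by 3.64 and rose by 6.79, with a step difference of 10.43 ± 0.34 (adjusted p = 5.7e-12). Sqor, the sulfide quinone oxidoreductase of mitochondria, fell by 2.88 and rose by 5.13, and Mboat2, an acyltransferase of phospholipids, fell by 2.32 and rose by 5.56. St3gal6, a sialyltransferase, Mfhas1 and Paqr9 ended 6.03-fold, 6.75-fold and 15.4-fold above KLS after first falls of 2.31, 2.15 and 1.03, of which that of Paqr9 lost its call with the slide as a block (-0.99). Blnk, the B cell linker, and Ddx4, the germ cell helicase, fell by 4.69 and 4.73, recovered by 3.05 and 2.48 and ended 1.64 and 2.24 below KLS. Within each fraction the arrays of Fads3, Sqor and Mfhas1 lay within 0.67 of each other, which is far less than either step.

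Immediate early genes fell at the second step. Of 32 tested, 26 fell and none rose between KLS and CFUe, with a median of -2.39, where 19.2% of all genes fell and 19.5% rose. At the first step 2 fell and 2 rose, where 9.92% and 3.62% of all genes did. At the second step 28 fell, where 14.2% of all genes did. The first-step median of 0.22 turned to -0.24 with the spike-in scaling and to -0.21 with the slide as a block. Over all genes it was 0.13, -0.34 and 0.07 in the same order. All 27 called step differences of the list were lower. Fos was read at 6.94, 6.99 and 7.18 in KLS, at 6.95, 7.16 and 7.13 in PreMegE and at 4.14, 3.99 and 3.77 in CFUe. Its first step of 0.04 ± 0.24 did not pass, and its second was -3.11. Jun, its partner, and Klf4, a Kruppel-like factor of quiescent cells, fell by 3.31 and 5.52 at the second step. Egr1 was at 5.47, 5.27 and 3.40 in CFUe, of which array 3 was the lowest, and its net fall was 2.20, or 1.54 without that array. Rgs1, a regulator of G protein signalling, was among the 12 largest falls, at 187-fold, nearly all of it at the second step (-7.33). Ctla2a and Ctla2b, genes of the cysteine protease inhibitor family, changed by -9.06 and -8.76 and did so at the second step, after -0.14 and -0.09 that did not pass.

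Among 30 heat shock genes and chaperones, 17 rose and 3 fell, with quantile normalization 5 rose and 5 fell, and with the spike-in scaling 1 rose and 6 fell. Over all genes 19.5% rose and 19.2% fell. Of all 14318 genes 2424 rose and 2778 fell with quantile normalization, and 446 and 5243 with the spike-in scaling. With quantile normalization the list was thus near the shares of all genes. The 3 falls were the inducible genes Hspa1a, Hspa1b and Hspb1, which rose at the first step and fell at the second, but the first-step rises lost their calls with the slide as a block and with the spike-in scaling. Hspa1a was read at 4.41, 6.06 and 6.15 in KLS, at 6.19, 7.94 and 7.35 in PreMegE and at 2.28, 2.47 and 2.51 in CFUe, and replicate 1 was the lowest of KLS and of PreMegE for all 3 genes. For Hspb1 the net fall lost its call when slides were blocked (limma, adjusted p = 0.062). The metallothioneins, which bind zinc and copper, rose. Mt2 rose 79.5-fold, from 0.78, 0.75 and 2.48 through 2.36, 2.46 and 2.29 to 7.53, 7.81 and 7.61, mainly at the second step (5.28, step difference 4.24 ± 0.55), and Mt1 rose by 2.16 and then by 3.06. Of 34 antioxidant and glutathione genes, 19 rose and 3 fell, and 9 rose and 8 fell with the spike-in scaling. Prdx2, a red cell peroxiredoxin, rose by 1.67 at the second step, after 0.20.

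Most calls of cell cycle genes lay at the second step, and most rest on the scaling. Over all genes 3.62% rose at the first step and 11.7% at the second, and between KLS and CFUe 19.5% rose and 19.2% fell. Of all 14318 genes 2424 rose and 2778 fell in net with quantile normalization, and 446 and 5243 with the spike-in scaling. With quantile normalization the share of mitosis genes that rose, given below, was smaller than that of all genes. Of 24 genes of replication origins and the MCM helicase, 14 rose and none fell, with no call in either direction at the first step and 12 rises at the second, and 6 net rises were left with quantile normalization and 1 with the spike-in scaling. Cdc6, which loads the helicase, was read at 0.22, 0.43 and 0.41 in KLS, at 0.04, 0.35 and 0.41 in PreMegE and at 2.21, 2.02 and 2.39 in CFUe (step difference 2.03 ± 0.33), and its net rise was 0.88, under 2-fold, with the spike-in scaling. Of 51 genes of mitosis and the spindle, 16 rose and 2 fell, 5 and 2 with quantile normalization and 23 and 2 without CFUe array 3, which was the lowest CFUe array for 43 of 50 of them, and with the spike-in scaling the median turned from 0.84 to -0.14. For DNA polymerases and fork proteins and for recombination repair, where 11 of 30 and 10 of 36 rose and none fell, the medians of 0.70 and 0.65 turned to -0.28 and -0.33 with that scaling. The median gene moved from 0.31 to -0.67 with it, so these lists and mitosis stayed above the median gene. Ccne1, cyclin E1, stood out of its list, from 0.98, 0.93 and 1.44 in KLS and 0.96, 1.25 and 1.19 in PreMegE to 5.25, 5.46 and 5.49 in CFUe. It rose 19.5-fold (3.31 with the spike-in scaling against 4.28), with a step difference of 4.24 ± 0.28. Cdkn1a, which encodes the inhibitor p21, fell by 4.75 at the second step, after -0.01, and Cdkn1c, which encodes p57, fell by 1.79 at the first step with a second step of -0.54 that did not pass (-1.06 with the spike-in scaling, which did).

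Mthfd1, an enzyme of folate metabolism, rose 7.49-fold, from 3.19, 3.09 and 3.42 through 3.56, 3.65 and 3.84 to 6.20, 6.22 and 5.99, and its second step was the larger (2.45 against 0.45, step difference 2.0 ± 0.25). Of 29 genes of nucleotide synthesis and 21 of folate and serine metabolism, 17 and 13 rose, where 19.5% of all genes did. None rose at the first step, where 3.62% of all genes did. Between KLS and CFUe 0 and 3 rises were left with the spike-in scaling, where 446 of all 14318 genes rose. With quantile normalization 6 and 9 were. Rrm1, the large subunit of ribonucleotide reductase, rose by 1.53 at the second step after 0.01.

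The mitochondrial and translation machinery rose as a block of small changes. Of 76 genes of oxidative phosphorylation 65 rose, of 76 genes of the mitochondrial ribosome 63, of 48 of ribosome biogenesis 44, of 22 tRNA synthetases 18 and of 38 of the proteasome 32, and none fell. Their medians were 1.37, 1.39, 1.40, 1.33 and 1.24, against 0.31 for the median gene. At the first step 1 gene of these lists rose, Mrpl52 of the mitochondrial ribosome, which was under 2-fold when slides were blocked (0.93), and the second step held 47, 50, 26, 13 and 24 rises. With the spike-in scaling the medians were 0.39, 0.41, 0.43, 0.35 and 0.26, and 1, 3, 3, 1 and 0 genes rose. With quantile normalization 11, 32, 26, 8 and 7 rose. Of all 14318 genes 446 rose with the spike-in scaling and 2424 with quantile normalization. Without KLS array 3, the highest KLS array for nearly every respiratory gene, 71 of the 76 rose. Cyc1, cytochrome c1, was read at 3.83, 3.61 and 4.20 in KLS, at 4.05, 4.15 and 4.10 in PreMegE and at 5.62, 5.97 and 5.78 in CFUe. Hars, the histidyl tRNA synthetase, rose by 2.40 ± 0.13 and Bysl, a factor of small subunit assembly, by 2.37 ± 0.14. Of the proteins of the cytosolic ribosome 4 of 79 rose, 12 without KLS array 3, with a median of 0.68 that turned to -0.30 with the spike-in scaling and to -0.04 with quantile normalization, and no step difference of the list was called. The median gene was at -0.67 with the spike-in scaling and at 0.21 with quantile normalization. Of 26 genes of the citric acid cycle 19 rose and 2 fell, and 1 rose and 3 fell with the spike-in scaling.

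**Figure D5:**
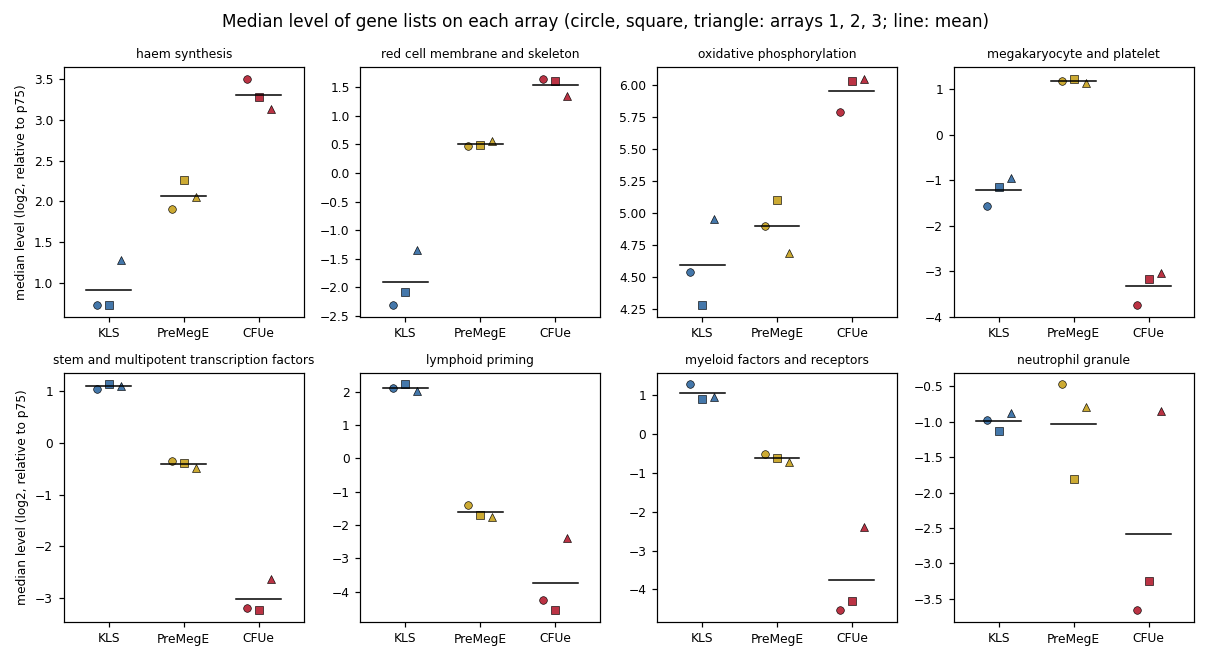
Median level over the genes of 8 lists on each of the 9 arrays (points) and the mean of the 3 arrays (horizontal lines), on the log2 scale relative to the 75th percentile of the array. CFUe array 3, drawn as a triangle, lies at -2.40 for myeloid genes, where the other CFUe arrays are at -4.54 and -4.30, and at 3.13 for haem synthesis, where they are at 3.51 and 3.29.

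Of 29 genes of glycolysis, 5 rose and 10 fell (17.2% and 34.5%, against 19.5% and 19.2% of all genes), and with the spike-in scaling 2 rose and 18 fell. Slc2a1, already named, fell from 1.71, 1.69 and 1.62 through 0.69, 0.69 and 0.51 to -3.43, -3.83 and -2.91. Pkm, the pyruvate kinase of dividing and myeloid cells, was read at 3.78, 3.68 and 3.78 in KLS and at -4.46, -4.28 and -1.40 in CFUe, where 2 arrays were well above background, as Pklr rose. Hk3, the hexokinase of myeloid cells, fell by 5.80 and Hk1 rose by 1.67, the latter at the first step (1.45, step difference -1.24 ± 0.25), and its net rise was 0.69 with the spike-in scaling and lost its call. Slc16a11, a monocarboxylate transporter, fell 131-fold, most of it at the first step (5.26 against 1.78, step difference 3.48 ± 0.43), while Slc16a1, the lactate transporter MCT1, rose by 2.62.

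Lipid and transport genes held some of the largest rises. Sphk1, the sphingosine kinase, was read at 0.11, -0.01 and 1.79 in KLS, at 1.22, 1.55 and 1.66 in PreMegE and at 7.07, 7.34 and 7.08 in CFUe. It rose 92.6-fold, with 5.69 at the second step. Its first step of 0.84 did not pass, but it was 1.43 and passed without KLS array 3 (limma, adjusted p = 0.0014). S1pr1, a receptor of its product, rose by 1.1 and then fell by 4.54, and its first step lost its call without KLS array 3 (0.90). Of 24 sphingolipid genes, 4 rose and 10 fell (16.7% and 41.7%, beside the same shares of all genes). Of 24 genes of fatty acid synthesis and desaturation, 11 rose and 2 fell, with a median of 0.73 that turned to -0.25 with the spike-in scaling. With that scaling the median gene moved from 0.31 to -0.67. Scd1, the stearoyl-CoA desaturase, was at least 4.97-fold higher in CFUe than in KLS, where no array was well above background. Slc38a5, a glutamine transporter, rose 118-fold, by 3.46 and then by 3.42. Abcg4, a transporter of the ABCG family, rose 94.3-fold, nearly all of it at the second step (5.47, step difference 4.37 ± 0.50), and Abcb4, a phospholipid transporter, rose 21.5-fold with the larger part at the first (2.98).

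Of the other largest changes, Cldn13, a claudin, rose by 6.30 at the second step after 0.39 that did not pass, and Aldh1a7, an aldehyde dehydrogenase, and Npsr1, a G protein-coupled receptor, rose by 6.65 and 6.59 without a called step difference. Among the falls, Cd93, a lectin-like receptor of early progenitors, was read at 5.39, 5.15 and 5.39 in KLS, at 3.96, 4.12 and 3.60 in PreMegE and at -3.72, -3.78 and -0.41 in CFUe. It changed by -7.95 ± 0.57 and by -9.06 without CFUe array 3. The changes of Cd52, a lymphocyte surface protein, were -7.35 ± 0.68 and -8.67. Gcnt2, the enzyme of the I blood group antigen, and Serpinb1a, a protease inhibitor of neutrophils, fell by 7.19 and 7.12, and the second step was the larger for both (step differences -2.91 and -4.29). For Gata2, Slamf1, Csf2rb, Ncoa4 and Hbb-bt another tested probe differed from the one used in the call or direction of its net change. The mean net changes over all tested probes of these genes were -0.76, -1.76, -2.86, -1.17 and -1.13.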

How the data were processed

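Total RNA (150 ng) of sorted cells was labelled with Cy3 and hybridised, with spike-in RNA, to single-colour Agilent mouse arrays, 21 in the series and 3 for each of 7 fractions. The authors deposited the scanner output of Agilent Feature Extraction 10.7.1.1 as linear intensity values, and a series table of log2 values that was deposited beside it served only as an alternative.

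Control spots and outlier spots were dropped, spots of a probe were averaged, and each array was scaled by subtracting its 75th percentile from the log2 processed signal. A probe was tested where some fraction had it well above background on each of its 3 arrays (29538 of 41174), and 14318 genes had a tested probe. All 21 arrays were fitted together with limma 3.58.1 in R 4.3.3 (14 residual degrees of freedom), with 4 contrasts, KLS to CFUe, both steps, and the second step minus the first. P values were adjusted by Benjamini-Hochberg over all tested probes, and a call needed an adjusted p under 0.05 and a 2-fold change. Python 3.11.15 was used for tables (pandas 2.3.3) and for drawing (matplotlib 3.10.9). Where no array of the dimmer fraction was well above background, a bound is given against the lowest signal that was. On simulated data for KLS to CFUe (29538 probes), 176 of 200 probes changed by 2 on the log2 scale were called, and 7 unchanged ones. The number of arrays limits the precision.

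The 66 gene lists (1600 of 1643 genes matched by symbol, 1575 tested), the genes named and the comparison itself were chosen with earlier results of these data known. Named genes are list members, the largest of a list first, the 12 largest rises and falls, the 8 strongest maxima and minima in PreMegE, and Gata1, Gata2 and Spi1. The alternatives were quantile, spike-in (7 of 10 spike-ins) and normexp processing (offset 50, on median signals), the series table, other filters, 1 probe per gene, no minimum fold, the 3 fractions alone, slide or replicate number as a block, and each array left out. Blocks for sex-linked transcripts and for slide set, and leaving out CFUe array 3 and KLS array 3 together, were chosen after seeing the data. Promoter sequence came from a RefSeq table. Some items are not reported here.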

Additional observations from a re-analysis of the deposited data

How the results depend on the processing

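Between KLS and CFUe 10738 probes were called, 3673 at the first step, 7290 at the second and 6468 for the step difference. In the same order the counts were 5785, 1940, 3453 and 4146 with normexp, and 5549, 1955, 3730 and 3259 with 1 probe per gene, where fewer probes were tested. The stricter filter, which also tests fewer probes, gave 7003, 1495 and 4655 for the first 3 comparisons. Without a minimum fold change these were 18485, 7762 and 15005. The spike-in scaling gave 3824 step differences. The cause of the normexp and spike-in counts was not tested. Leaving out 1 array gave 10276 to 11148, 3433 to 3747, 6871 to 7735 and 5474 to 6964 calls. Deviations of arrays with the same replicate number correlated between -0.13 and 0.37, so the numbers were not taken to pair the samples, and a replicate block gave 10742, 3672, 7270 and 6518 calls.

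With the spike-in scaling the net medians of DNA polymerases, mitosis, recombination repair and fatty acid synthesis turned to -0.28, -0.14, -0.33 and -0.25. This scaling moves all genes of an array by the same amount, and the net median over all genes went from 0.31 to -0.67. The first-step medians of the mitochondrial ribosome, ribosome biogenesis and tRNA synthetases turned to -0.18, -0.0685 and -0.16. Over all genes the first-step median went from 0.13 to -0.34 and the second-step median from 0.19 to -0.32. The net median of the cytosolic ribosome turned to -0.30 with the spike-in scaling, -0.0449 with quantile normalization, -0.0397 with normexp and -0.0247 with the series table, and its second-step median to -0.17, -0.0582, -0.0731 and -0.0377. No called change of a named gene turned its sign under the alternatives run, while 37 of them lost the call with the slide as a block and 33 with the spike-in scaling. With the block for sex-linked transcripts, the net change of S100a8 was -0.06. Signals near background limit the CFUe levels of Spi1, Meis1, Erg and Ly6a, each well above background on 1 CFUe array. They also limit the medians of lists that fell, such as the lymphoid, myeloid and macrophage genes.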
